A study of Mus musculus with 5 samples.

Results

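Saa3 Cxcl13 fibroblasts are a set of stromal cells of KPPC pancreatic tumours that carry high RNA levels of Saa3, Cxcl13 or Calca together with Dcn. A cell was a member when its UMIs per 10000 summed to at least 20 over Saa3, Cxcl13 and Calca, reached at least 5 for Dcn, and stayed under 3 over the mesothelial genes Upk3b, Lrrn4, Upk1b and Nkain4, under 10 over Serpinb2, Cryab and Ndufa4l2, and under 4 over the epithelial genes Epcam, Cldn4 and Cldn7. UMIs (unique molecular identifiers) count single captured transcripts. The 5 cutoffs selected 810 of the 9574 KPPC cells, out of 17771 barcodes in all: 261 in the library named C3, 331 in D3 and 218 in H2. The cutoffs used measured values of these cells, so differences between the members and other KPPC cells are given below as a description, with no test.

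The tumours came from KPPCN and KPPC mice aged 7 to 8 weeks, and both genotypes were profiled by droplet RNA sequencing of the 3′ ends of transcripts. In the usual meaning of these names, mice of both genotypes carry an oncogene and lack Trp53 in the Pdx1-Cre lineage, which forms the pancreatic epithelium, and KPPCN mice lack Nsdhl, a sterol dehydrogenase of late cholesterol synthesis, in that lineage as well. Fibroblasts arise outside that lineage, so in both genotypes the alleles so named would lie in the tumour epithelium and not in the cells described here. The labels name the genotypes without alleles, and the deleted exons of Nsdhl are unknown here. The dissociated tumours were cleared of dead cells and of CD45+ cells, which are leukocytes. The analysis used 2 KPPCN libraries (KPPCN 1 and KPPCN 2) and 3 KPPC libraries (C3, D3 and H2), each taken as 1 tumour. The labels count 3 mice per genotype, and the third KPPCN tumour was not analysed here.

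Carcinoma-associated fibroblasts are commonly divided into contractile, matrix-producing myofibroblasts, inflammatory fibroblasts that secrete cytokines and acute-phase proteins, and antigen-presenting fibroblasts that carry MHC class II and Slpi. Mesothelial cells line the organ surface, carry keratins, Msln and Upk3b, and share the transcription factor Wt1 with some of the stroma beneath them. SAA3 is an acute-phase protein of tissues, CXCL13 is the chemokine that draws B cells through CXCR5, and Calca encodes calcitonin and the vasodilator peptide CGRP.

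KPPCN 1 held 5378 cells of at least 500 genes and KPPCN 2 held 2018, with a median of 2230.5 and 21909.5 UMIs over these cells. The KPPC libraries held 2515 to 3777 such cells with a median of 17391 to 19052 UMIs. The cells of at least 500 genes summed to 27452190 and 53393010 UMIs in KPPCN 1 and 2, against 51292092 to 80501725 UMIs in KPPC. The members themselves were read at a median of 17324, 18549 and 19620 UMIs per cell in C3, D3 and H2. No KPPC barcode fell under 503 genes. Between 0 and 6 barcodes were shared by any pair of libraries, and no barcode was shared between members or matching cells of 2 libraries. No doublet caller was run. Of the members, 0, 3 and 4 lay above the 95th percentile of UMIs of their library. In the KPPC table, 1166 of 12579 genes had no UMI in any cell of at least 1 library (275 in C3, 418 in D3 and 1036 in H2), and 46 of them reached 50 CPM or more in a population of another KPPC library. Such genes are said to be listed at 0, which is not read as absence of the RNA.

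The genes that define the cells are, in the mouse genome (GRCm38), Saa3 (ENSMUSG00000040026, chr7:46711998-46715700, minus strand), Cxcl13 (ENSMUSG00000023078, chr5:95956951-95961068, plus strand) and Calca (ENSMUSG00000030669, chr7:114631478-114636357, minus strand). The markers that were not part of the definition are Slpi (ENSMUSG00000017002, chr2:164354070-164389095, minus strand), the secretory leukocyte protease inhibitor, and Enpp2 (ENSMUSG00000022425, chr15:54838901-54952892, minus strand), which encodes autotaxin, the secreted enzyme that makes lysophosphatidic acid. Enpp2 overlaps Gm26684 on the other strand, and Trf and H2-Eb1, described below, overlap Gm20425 and Gm20513, so their reads could be shared. Promoter windows of 300 bases (250 before and 50 after a transcript start, from RefSeq on GRCm38.p6) are shown for Saa3, Cxcl13 and Slpi. Saa3 and Cxcl13 were part of the definition. The 3 genes did not share one order across the mesothelial bins described below. Windows for Enpp2 and H2-Ab1 were not used here. Capitals mark the word TTNNGCAA, the core of a C/EBP site, searched on both strands.
Saa3, chr7:46715627-46715926, minus strand: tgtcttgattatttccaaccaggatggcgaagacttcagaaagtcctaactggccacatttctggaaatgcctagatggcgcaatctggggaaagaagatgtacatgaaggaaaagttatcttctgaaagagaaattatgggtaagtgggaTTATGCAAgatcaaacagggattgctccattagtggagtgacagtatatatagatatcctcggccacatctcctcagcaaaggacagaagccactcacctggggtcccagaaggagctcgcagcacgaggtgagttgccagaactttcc
Cxcl13, chr5:95956689-95956988, plus strand: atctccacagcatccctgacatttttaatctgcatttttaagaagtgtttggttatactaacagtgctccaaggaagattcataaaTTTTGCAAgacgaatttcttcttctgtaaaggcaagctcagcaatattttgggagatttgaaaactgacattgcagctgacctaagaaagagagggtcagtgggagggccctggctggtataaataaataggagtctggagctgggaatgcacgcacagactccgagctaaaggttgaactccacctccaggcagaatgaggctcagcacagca
Slpi, chr2:164356458-164356757, minus strand: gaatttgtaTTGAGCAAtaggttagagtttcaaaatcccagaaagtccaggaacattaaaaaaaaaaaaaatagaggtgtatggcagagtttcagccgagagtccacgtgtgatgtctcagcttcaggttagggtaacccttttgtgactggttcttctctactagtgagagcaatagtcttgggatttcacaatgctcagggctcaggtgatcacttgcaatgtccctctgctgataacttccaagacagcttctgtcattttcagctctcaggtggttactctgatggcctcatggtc
Each of these 3 windows held 1 such word, starting 99, 164 and 241 bases before the RefSeq start of Saa3, Cxcl13 and Slpi in that order. The Slpi window lies inside the gene span given above, so its RefSeq start is not the start of that span. Over all 32851 windows of this length 10.8% held it. For the MHC class II genes described below, capitals mark ATTGG or its complement CCAAT, the word of the Y box that class II promoters are known for.
H2-Eb1, chr17:34305617-34305916, plus strand: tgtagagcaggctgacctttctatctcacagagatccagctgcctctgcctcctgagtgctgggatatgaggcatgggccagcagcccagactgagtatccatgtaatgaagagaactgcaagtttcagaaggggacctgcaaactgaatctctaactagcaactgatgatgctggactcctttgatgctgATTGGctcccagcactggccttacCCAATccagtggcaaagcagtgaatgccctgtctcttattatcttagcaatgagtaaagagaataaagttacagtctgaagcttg
H2-Aa, chr17:34287774-34288073, minus strand: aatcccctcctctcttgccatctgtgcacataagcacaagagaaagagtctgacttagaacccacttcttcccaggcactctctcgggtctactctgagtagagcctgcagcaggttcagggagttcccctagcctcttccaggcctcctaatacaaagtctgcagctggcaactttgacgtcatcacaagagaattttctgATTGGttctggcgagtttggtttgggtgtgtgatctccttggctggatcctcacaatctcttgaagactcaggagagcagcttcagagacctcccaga
H2-Eb1 held 2 copies, at 59 and 35 bases before the start, and H2-Aa held 1 at 48 bases before it, while 37.4% of all windows held at least 1. Both words are short, and a match is a match of letters only.

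Cells that pass the cutoffs numbered 391 in KPPCN 1 (7.27% of its cells, exact binomial 95% interval 6.59 to 8.00%) and 33 in KPPCN 2 (1.64%, 1.13 to 2.29%). Members made up 6.91% of the cells of C3 (6.12 to 7.77%), 10.1% of D3 (9.08 to 11.2%) and 8.67% of H2 (7.60 to 9.84%), a mean of 8.55 ± 1.59% (SD, n = 3). The intervals cover counting error only. Among cells with Dcn of at least 5 the share was 14.7 and 7.25% in KPPCN 1 and 2, against 11.7, 17.7 and 16.7% in C3, D3 and H2. KPPCN 1 therefore lay within the range of the KPPC libraries by both denominators, and KPPCN 2 lay below it. KPPCN 2 was the library with the highest median UMIs (21909.5), and KPPCN 1 the one with the lowest (2230.5). In a cell of few UMIs each UMI weighs more against the fixed cutoffs, so they can select different cells at unlike depth. The shares were not compared at equal depth, and the part of depth in them was not tested. In a share of captured cells, fewer passing cells and more of the other cells cannot be told apart.

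Most members entered through Saa3. Saa3 reached 20 UMIs per 10000 in 727 of 810 members (89.8%), Cxcl13 in 265 (32.7%) and Calca in 92 (11.4%). Saa3 was the only one of the 3 to do so in 456 members and Cxcl13 the only one in 45, whereas 220 members reached it for both and 25 reached it for no single gene. The libraries differed in this makeup: Cxcl13 reached 20 in 31.8, 26.9 and 42.7% of members of C3, D3 and H2, and Calca in 8.81, 16.6 and 6.42%. The median member held a sum of 99.3, 185 and 146 UMIs per 10000 over the 3 genes in C3, D3 and H2, against 0.761, 1.28 and 0.522 in the other fibroblasts. Just inside the cutoff, 43 members summed to between 20 and 25, and just outside it 43 cells that passed all other cutoffs summed to between 15 and 20. The limits removed many cells: of cells high in the 3 genes and in Dcn, 178, 449 and 139 in C3, D3 and H2 exceeded the mesothelial limit, 108, 443 and 119 the Serpinb2 limit and 5, 59 and 9 the epithelial limit, some of them more than one.

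Other fibroblasts were defined as cells that passed every cutoff but summed to under 20 over Saa3, Cxcl13 and Calca (1389, 325 and 610 cells in C3, D3 and H2). They held a median of 17731, 13358 and 16167 UMIs per cell, against 17324, 18549 and 19620 in members. Mesothelial cells were defined by a sum of at least 10 over Upk3b, Lrrn4, Upk1b and Nkain4 (167, 185 and 130 cells). UMIs were summed over the cells of a population in each library and scaled to 1000000 (CPM), and ratios were taken on log2(CPM + 5), which understates the change of low genes. By the definition, Saa3 stood at 11769.9, 17644 and 11443 CPM in the members of C3, D3 and H2, against 117, 256 and 152 CPM in other fibroblasts and 3514, 7007 and 6269 CPM in mesothelial cells. Cxcl13 stood at 2998, 2252 and 6999 CPM in members, against 32.96, 19.8 and 20.6 CPM in other fibroblasts and 66.7, 152 and 145 CPM in mesothelial cells, and Calca at 557, 1135 and 577 CPM in members, 34.04, 69.96 and 39.6 CPM in other fibroblasts and 178, 668 and 346 CPM in mesothelial cells. These sums were spread unevenly over the mesothelial cells, which were not chosen for the 3 genes: the median mesothelial cell of C3, D3 and H2 held 2.17, 36.1 and 4.80 UMIs per 10000 of Saa3, where the means were 29.97, 76.02 and 67.8, and 0, 0.862 and 0 of Calca.

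**Figure D1:**
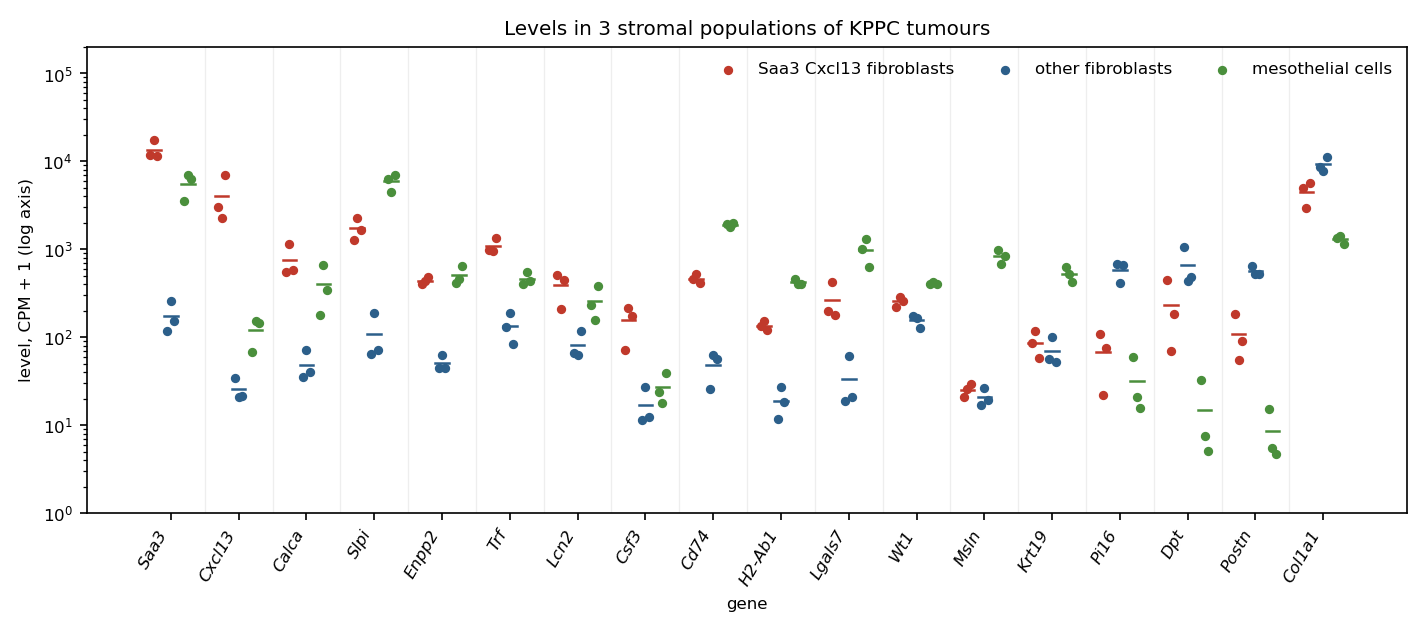
RNA levels (CPM + 1, log axis) of 18 genes in Saa3 Cxcl13 fibroblasts, other fibroblasts and mesothelial cells; each point is 1 KPPC library and each line the mean of 3. Slpi, Enpp2, Trf and Cd74 lie well above the other fibroblasts in members, Msln and Krt19 do not, and Pi16, Dpt, Postn and Col1a1 lie below.

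Outside the genes of the definition, 55 of 2948 genes (1.87%) with at least 50 CPM in either population stood at least 2-fold higher in members than in other fibroblasts in all 3 libraries, and 110 (3.73%) at least 2-fold lower. The genes that stood highest were, in order, Slpi, Gm14226, Cd74, Enpp2, Lgals7, H2-Ab1, Trf, Csf3, H2-Eb1, Cd14, H2-Aa and Abcb1b. Slpi stood at 1282, 2239 and 1659.8 CPM in members and 63.9, 187 and 69.9 CPM in other fibroblasts, a mean log2 ratio of 4.08 ± 0.48 (SD, n = 3). Enpp2 stood at 399, 438 and 483 CPM in members and 43.2, 62.4 and 43.8 CPM in other fibroblasts (3.03 ± 0.31). The members' values exceeded those of the other fibroblasts in every library for both genes. Of the receptors for the lipid that autotaxin makes, Lpar1 lay the other way, at 28.4, 7.80 and 37.2 CPM in members and 52.8, 76.9 and 96.9 CPM in other fibroblasts.

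Secreted proteins of iron handling and of the acute phase were among the raised genes. Trf, the iron carrier transferrin, stood at 979, 965 and 1354 CPM in members and 129, 188 and 83.4 CPM in other fibroblasts (3.05 ± 0.82). Lcn2, which binds bacterial siderophores, stood at 509, 210.5 and 442 CPM in members and 65.7, 62.4 and 116 CPM in other fibroblasts (2.14 ± 0.63), and Cp, the copper ferroxidase ceruloplasmin, at 410.1, 287 and 319 CPM in members and 159, 130.0 and 117 CPM in other fibroblasts (1.29 ± 0.16). Epithelial tumour cells of the same libraries held 749, 438 and 509.5 CPM of Lcn2, more than the members in each library. Within a list of 22 acute-phase and antiprotease genes, 15 were measured at 20 CPM outside the definition, of which Lcn2, Slpi and Cp stood 2-fold higher in all 3 libraries and Serpine2 2-fold lower, against 1.47% and 2.3% of all 6035 genes at that level, with a median log2 ratio of −0.23 against −0.08 over all genes. Hp, haptoglobin, stood at 1328, 1067 and 1371 CPM in members and 391, 490.5 and 1110.4 CPM in other fibroblasts, a ratio that was small in H2. The complement gene C3 had a mean log2 ratio of 0.28 ± 0.43.

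Among 31 chemokines and cytokines, 18 were measured outside the definition, and 3 of them stood 2-fold higher in all 3 libraries, Csf3, Cxcl5 and Il18, against 1.47% of all 6035 genes at 20 CPM. Csf3 encodes the granulocyte growth factor G-CSF and stood at 71.4, 216 and 174 CPM in members, 10.5, 26.1 and 11.5 CPM in other fibroblasts and 22.7, 16.7 and 38.6 CPM in mesothelial cells. Cxcl5, a neutrophil chemokine, stood at 135, 245 and 182 CPM in members and 25.3, 60.3 and 53.99 CPM in other fibroblasts. Cxcl1, which also draws neutrophils, stood at 779, 488 and 382 CPM in members and 1079, 557 and 430.2 CPM in other fibroblasts, and Il6 at 83.8, 70.2 and 83.4 CPM in members and 136, 92.9 and 107 CPM in other fibroblasts, lower in members in each library for both genes. Of the 18 inflammatory fibroblast genes measured, none stood 2-fold higher and Clec3b, Ly6c1 and Dpt stood 2-fold lower, against 1.47% and 2.3% of all genes. Of the genes of lymphoid stroma, only Clu passed the 2-fold limit among 7 measured, and Vcam1 and Icam1 had mean ratios of 0.52 ± 0.41 and 0.16 ± 0.14.

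All 6 measured genes of a list of antigen-presenting fibroblasts outside the definition stood at least 2-fold higher in members in all 3 libraries, against 1.47% of all genes at 20 CPM: Cd74, H2-Aa, H2-Ab1, H2-Eb1, H2-DMb1 and Slpi. Cd74, the invariant chain that guards the class II groove, stood at 456, 524 and 411 CPM in members, 24.7, 61.9 and 55.8 CPM in other fibroblasts and 1949, 1778 and 2009 CPM in mesothelial cells. H2-Ab1, a class II beta chain, stood at 132, 151 and 119 CPM in members, 10.7, 25.9 and 17.3 CPM in other fibroblasts and 461, 407 and 405 CPM in mesothelial cells. Members lay between the other fibroblasts and the mesothelial cells for both genes in every library. After each cell was thinned to 5000 UMIs, 33.1, 43.4 and 38.03% of members held a Cd74 UMI in C3, D3 and H2, against 5.004, 8 and 5.42% of other fibroblasts, 88.2, 79.9 and 90.8% of mesothelial cells and 4.22, 6.29 and 4.14% of epithelial tumour cells. Unthinned, the share in members was 48.7, 55.3 and 53.2%, against 14.97, 17.8 and 13.6% in other fibroblasts, and 19, 13 and 5 members with fewer UMIs were left out by thinning. Epithelial tumour cells had a median of 18652, 20838.5 and 19719 UMIs, against 17324, 18549 and 19620 in members. The share in epithelial tumour cells was close to that of the other fibroblasts and far below that of members. The part of free RNA or of doublets in these shares was not tested. The costimulatory gene Cd40 had a UMI in 0.383, 1.21 and 0.917% of members. Macrophage genes were not higher in members: 5 of 10 were measured in KPPC, and their summed level was 43.1, 45.6 and 26.1 CPM in members against 50.9, 49.6 and 45.7 CPM in other fibroblasts, with Fcer1g and Mrc1 at 0 in D3 and H2. Of 7 B and plasma cell genes only Igkc was measured in KPPC, at 12.03 CPM in members and 183 CPM in other fibroblasts of C3, and it was listed at 0 in D3 and H2.

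The genes that stood lowest in members included Ptn, Cilp, Pi16, Epha3, Dkk2, Col8a1, Igfbp5, Masp1, H19, Mfap4 and Tnc. Pi16, a marker of adventitial fibroblasts, stood at 106, 20.9 and 74.7 CPM in members and 679, 412 and 665 CPM in other fibroblasts (−3.23 ± 0.71). Ptn, the growth factor pleiotrophin, stood at 22.4, 16.5 and 12.6 CPM in members and 195, 265 and 189.9 CPM in other fibroblasts (−3.33 ± 0.41). Both genes were lower in members in each library. Of 34 interstitial matrix genes all were measured, and 14 stood 2-fold lower and none 2-fold higher, with a median log2 ratio of −1.20, against −0.08 over all 6035 genes at 20 CPM, of which 2.3% stood 2-fold lower and 1.47% higher. Col1a1, the main fibrillar collagen chain, stood at 4933, 2962 and 5615 CPM in members and 8734, 7871 and 11277 CPM in other fibroblasts (−1.08 ± 0.30). Postn, a matricellular protein of myofibroblasts, stood at 182, 54.1 and 89.2 CPM in members and 647, 525 and 526 CPM in other fibroblasts (−2.49 ± 0.68).

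Lists of other fibroblast states are read against the same 2.3% of all genes 2-fold lower, 1.47% higher and median of −0.08. Of 16 myofibroblast genes measured, 10 stood 2-fold lower, Thy1, Tnc, Postn, Col8a1 and Ctgf among them, with a median log2 ratio of −1.93. Acta2 and Tagln, which encode contractile proteins, did not reach the limit in every library, at 353, 178 and 351 CPM in members and 506, 858 and 1127 CPM in other fibroblasts for Acta2. Of 14 adventitial genes 6 stood 2-fold lower and none higher, with a median of −1.24. Of 22 TGFβ and BMP pathway genes, the pathway the study asked about, 7 stood 2-fold lower and none 2-fold higher: the ligands Tgfb3 and Inhba, the receptor Tgfbr2, the latency proteins Ltbp1 and Ltbp2, Fstl1 and the target gene Ctgf. The median over the 22 was −0.97. Tgfbr2 stood at 161, 82.3 and 115 CPM in members and 339, 302 and 299 CPM in other fibroblasts (−1.40 ± 0.39), and Ctgf at 26.8, 8.37 and 13.3 CPM in members and 71.8, 103 and 103 CPM in other fibroblasts (−2.29 ± 0.91). The receptor Pdgfra stood higher instead, at 269, 357 and 229.8 CPM in members and 139, 137 and 129.6 CPM in other fibroblasts (1.03 ± 0.29).

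The name fibroblast was checked against 12 genes that fibroblasts of many tissues share, of which Dcn was part of the definition. Of the other 11, Lum, Mmp2, Fstl1 and Thy1 stood 2-fold lower in members than in other fibroblasts and none higher, with a median log2 ratio of −0.84. Over all 6035 genes at 20 CPM, 2.3% stood lower and 1.47% higher, with a median of −0.08. Against mesothelial cells, Lum, Col1a1, Pdgfrb and Mmp2 stood 2-fold higher in members and none lower (median 1.22). Over all 6181 genes at 20 CPM in that comparison, 124 stood higher and 241 lower, with a median of −0.11. The 12 genes summed to 38259.6, 24592.5 and 30943 CPM in members of C3, D3 and H2, against 57519, 42230.1 and 53699.6 CPM in other fibroblasts, 21795, 21721.5 and 19995 CPM in mesothelial cells and 2376, 2175 and 2097 CPM in epithelial tumour cells. Members lay between other fibroblasts and mesothelial cells in each library, nearer to the mesothelial sum in each and nearest in D3. In KPPCN, Pdgfra was called higher and Lum and Fstl1 lower among 11 such genes in the test described below. Of all genes tested there, 1.55% were called higher and 0.889% lower.

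The name mesothelial-like was checked against 20 mesothelial genes. Leaving out the 4 of them in the definition, the remaining 16 summed to 1178, 1279.6 and 1122 CPM in members of C3, D3 and H2, against 1166, 1418 and 1026 CPM in other fibroblasts and 5905, 4669 and 4720.1 CPM in mesothelial cells. Members thus lay near other fibroblasts in this sum, above them in C3 and H2 and below them in D3, and far under mesothelial cells. The list is not specific to the mesothelium: all 20 genes, keratins and Msln among them, summed to 17124, 16479 and 19908.5 CPM in epithelial tumour cells of C3, D3 and H2, against 8054, 6550.1 and 6527 CPM in mesothelial cells. Of the 11 measured outside the definition at 20 CPM, none stood 2-fold higher in members than in other fibroblasts and Igfbp5 and Sulf1 stood 2-fold lower, with a median log2 ratio of 0.10. Over all genes at 20 CPM, 1.47% stood higher and 2.3% lower, with a median of −0.08. The list as a whole thus did not set members apart from other fibroblasts, and the cells are named here by their leading genes. Msln stood at 19.7, 24.97 and 28.2 CPM in members, 16.1, 25.3 and 18.4 CPM in other fibroblasts and 982, 681 and 828 CPM in mesothelial cells. Keratins Krt8, Krt18 and Krt19 had mean log2 ratios to other fibroblasts of 0.08 ± 0.43, −0.05 ± 0.50 and 0.31 ± 0.22. A few mesothelial genes were partly raised: Gpm6a stood at 14.5, 12.99 and 16.05 CPM in members and 1.78, 1.38 and 3.31 CPM in other fibroblasts, far below 289, 219 and 293 CPM in mesothelial cells, and Wt1 at 220.1, 289 and 257 CPM in members, 174, 165 and 125 CPM in other fibroblasts and 398, 422 and 401 CPM in mesothelial cells. Muc16 was listed at 0 in all cells of D3 and H2. Summed over 10 endothelial genes, members held 74.9, 90.7 and 99.9 CPM, against 62.5, 77.5 and 94.0 CPM in other fibroblasts.

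Set beside mesothelial cells, 84 of 3028 genes (2.77%) stood at least 2-fold higher in members in all 3 libraries and 160 (5.28%) at least 2-fold lower. The highest were Penk, Col15a1, Sfrp1, Rgs16, Dpt, Ptx3, Lum and Postn, most of them fibroblast genes. Sfrp1, a secreted Wnt antagonist, stood at 1011, 279.8 and 1006 CPM in members and 57.1, 29.8 and 28.2 CPM in mesothelial cells, and Cxcl12, the chemokine of stromal cells, at 888, 453 and 388 CPM in members and 62.5, 105 and 47.9 CPM in mesothelial cells. The lowest were Msln, Igfbp5, Gpm6a, Pkhd1l1, Anxa8, Cldn15, Smpd3 and Myo5b. Enpp2 did not separate members from mesothelial cells, with 409, 462 and 652 CPM in mesothelial cells, and Slpi was higher in mesothelial cells in each library (6259.9, 4438 and 7018 CPM).

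Because the mesothelial limit cut through cells high in Saa3, all KPPC cells that passed the other cutoffs were also ordered by their summed Upk3b, Lrrn4, Upk1b and Nkain4, in 4 bins of 297, 513, 369 and 205 cells (0, above 0 and under 3, 3 to under 10, and 10 or more UMIs per 10000). The first and second bins together are the members. The mean over the 3 libraries of Slpi was 629, 2231, 3672 and 7673 CPM from the lowest to the highest bin, that of Cd74 218, 583, 1114 and 1787 CPM and that of Msln 12.7, 29.9, 147 and 526 CPM. The opposite order held for Col1a1, at 7397, 3181, 1655 and 1453 CPM, Cxcl12, at 1169, 313, 144 and 125 CPM, and Hp, at 2107, 838, 352 and 173 CPM. Saa3 had no such order, at 10404, 15180.3, 12891 and 12091 CPM. Cxcl13 was highest in the 2 lower bins, at 3373, 4422, 1287 and 238 CPM. The median UMIs per cell in the lowest and the highest bin were 15348 and 21121.5 in C3, 15120 and 21993 in D3, and 18232.5 and 23295 in H2, and the part of depth in this order was not tested. These are sums over the cells of a bin, in which a gradient within cells and a changing mixture of cells or doublets cannot be told apart. The share of members in the lowest bin was 47.5% in C3, 24.5% in D3 and 42.2% in H2.

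**Figure D2:**
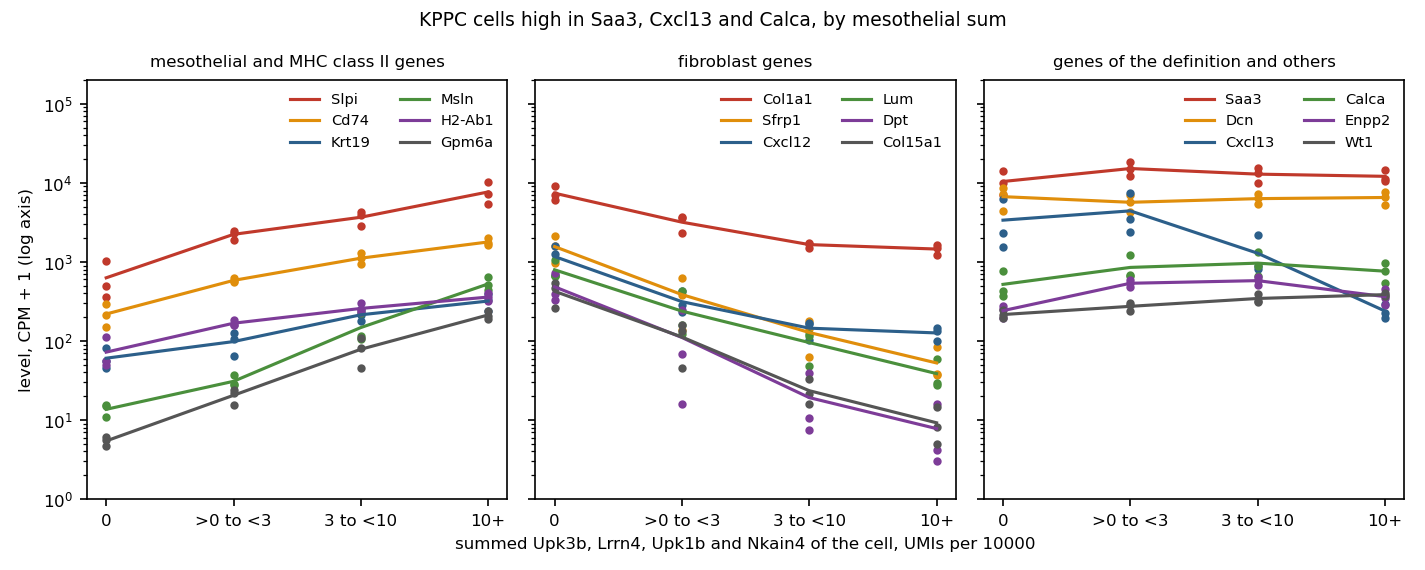
Levels (CPM + 1, log axis) of 18 genes in KPPC cells high in Saa3, Cxcl13 or Calca, against the cell's summed mesothelial genes; points are the 3 libraries and lines their mean, and the 2 bins under 3 are the members. Slpi, Cd74 and Msln rise and Col1a1, Cxcl12, Lum and Dpt decline from left to right, and Cxcl13 is highest under 3.

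Members were further divided by Cxcl13. Those with at least 20 UMIs per 10000 (83, 89 and 93 cells in C3, D3 and H2) were set beside those under 20 (178, 242 and 125 cells), again as a description since Cxcl13 was part of the definition. Of 2733 genes, 1 (0.0366%) stood at least 2-fold higher in all 3 libraries, Kitl, the ligand of the KIT receptor, and 29 (1.06%) stood at least 2-fold lower. The lower genes included Tagln, at 17.4, 35.6 and 31.5 CPM in cells with high Cxcl13 and 454, 193 and 528 CPM in the others, and Sfrp1, at 326, 49.04 and 125 CPM in cells with high Cxcl13 and 1303, 356 and 1516 CPM in the others. Timp1, an inhibitor of matrix proteases, stood at 594, 727 and 586 CPM in cells with high Cxcl13 and 2917, 2504 and 3528 CPM in the others. Trf stood at 2069, 1398 and 2754 CPM in cells with high Cxcl13 and 515, 822 and 543 CPM in the others, and Enpp2 at 725, 613 and 875 CPM in cells with high Cxcl13 and 259, 380.1 and 256 CPM in the others, higher in each library for both. Apoe and Ramp2, a partner of the adrenomedullin receptor, followed the same order. Cd74 did not, at 372, 401 and 337 CPM in cells with high Cxcl13 and 492, 564 and 454 CPM in the others. Slpi, at 1368, 2248 and 1075 CPM in cells with high Cxcl13 and 1246, 2236 and 1998 CPM in the others, was lower in H2 only.

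**Figure D3:**
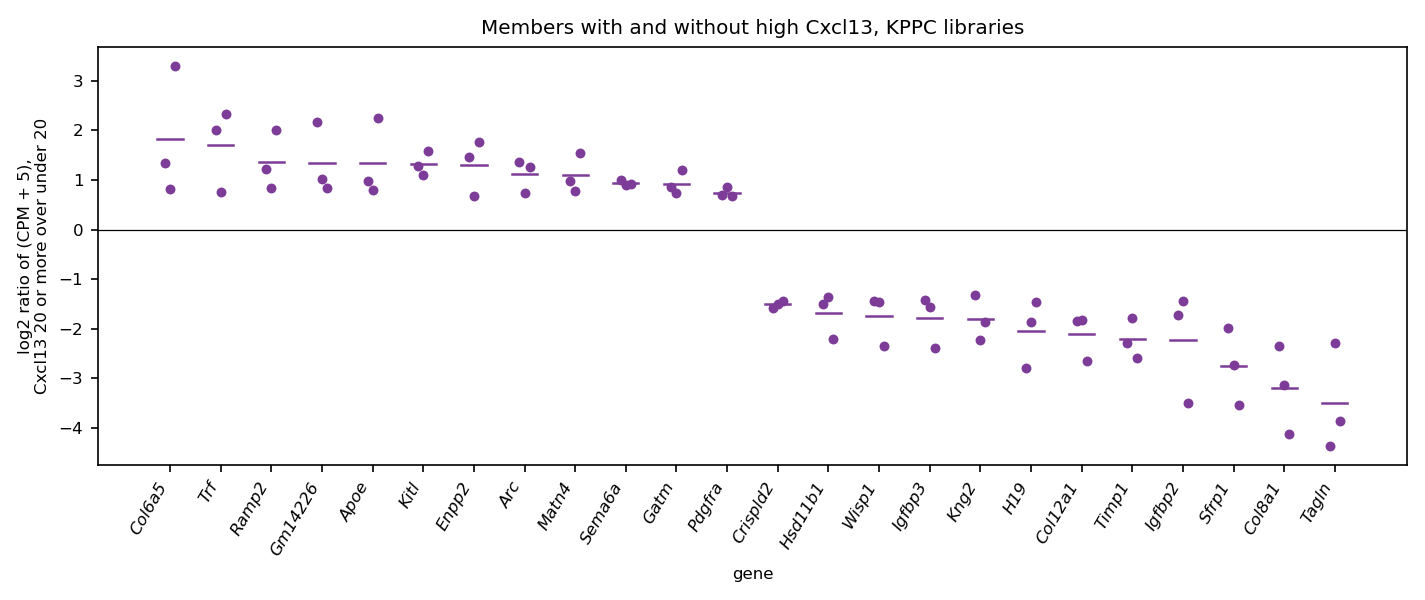
Log2 ratio of CPM + 5 between members with Cxcl13 of 20 UMIs per 10000 or more and members under 20, for the 24 genes that stood furthest apart; points are the 3 KPPC libraries and lines their mean. All 12 genes on the left lie above 0 and all 12 on the right below −1 in each library.

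The KPPCN tumours did not set the cutoffs, so they allow a test of whether cells that pass them differ from other fibroblasts in genes outside the definition. In 2 KPPCN libraries, the 391 and 33 passing cells were set against 1828 and 222 other fibroblasts with the library as a block (limma on log2 of scaled CPM + 5, Benjamini-Hochberg adjustment over all 11244 genes). The test called 174 genes higher (1.55%) and 100 lower (0.889%) in passing cells. Of the 55 genes that stood higher in KPPC members, 42 (76.4%) were called higher in KPPCN and none lower. Of the 110 that stood lower, 34 (30.9%) were called lower, and all 110 had a negative log2 difference. An unadjusted p under 0.05 was found for 1623 genes. The p-values rest on 2 libraries, which differ in depth. Without precision weights the same test called 0 genes higher and 1 lower, and with no scaling beyond the total it called 204 and 274. Passing cells held a median of 4765 and 19467 UMIs in KPPCN 1 and 2, against 2786.5 and 18661.5 in other fibroblasts. After each cell was thinned to 1000 UMIs, 58 genes were called higher and 39 lower, of 4093 tested. With 1 library left out no residual degree of freedom remains, and the values of each library are therefore given.

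Enpp2 stood at 1362 and 239 scaled CPM in passing cells of KPPCN 1 and 2, against 37.01 and 37.9 in other fibroblasts, a log2 difference of 4.31 (SE 0.39, adjusted p = 0.000183) by limma. Trf stood at 2386 and 376 scaled CPM in passing cells and 133 and 79.1 in other fibroblasts, a difference of 3.60 (SE 0.37, adjusted p = 0.000334). Lcn2, at 834 and 653 scaled CPM in passing cells against 68.8 and 169.7 in other fibroblasts, differed by 3.09 (SE 0.34, adjusted p = 0.000659). In both libraries these 3 genes were more than 2-fold higher in passing cells. Slpi, at 1114 and 165 scaled CPM in passing cells against 120.3 and 72.4 in other fibroblasts, differed by 2.68 (SE 0.54, adjusted p = 0.0226), with the larger difference in KPPCN 1. The other genes with the lowest p were Sod2, the mitochondrial superoxide dismutase, Slc6a4, the serotonin transporter, Tst, Rtn1, Cp, Cxadr and A530020G20Rik. Csf3, Lgals7, Cd14, Abcb1b and Gm14226 were called higher too, which brings the called genes to 8 of the 12 that stood highest in KPPC. The 4 others were the class II genes Cd74, H2-Ab1, H2-Eb1 and H2-Aa.

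Class II genes thus did not pass the test, and they ran in opposite directions in the 2 KPPCN libraries. Cd74 stood at 412 and 264 scaled CPM in passing cells of KPPCN 1 and KPPCN 2, against 755 and 56.4 in other fibroblasts (−0.12, SE 0.50, adjusted p = 0.958). H2-Ab1 stood at 141 and 55.4 scaled CPM in passing cells and 191 and 27.5 in other fibroblasts (−0.09, SE 0.32, adjusted p = 0.949). Summed B and plasma cell genes stood at 1060 CPM in the passing cells and 2264 CPM in the other fibroblasts of KPPCN 1, and at 3.25 CPM in the passing cells and 1.60 CPM in the other fibroblasts of KPPCN 2, with all 7 genes above 0 in KPPCN 1 and Cd79b, Ms4a1, Ighm and Jchain among those at 0 in the passing cells of KPPCN 2. Macrophage genes summed to 59.3 CPM in the passing cells and 129 CPM in the other fibroblasts of KPPCN 1, and to 35.7 CPM in the passing cells and 34.6 CPM in the other fibroblasts of KPPCN 2. The part of leukocyte RNA in the class II values was not tested.

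**Figure D4:**
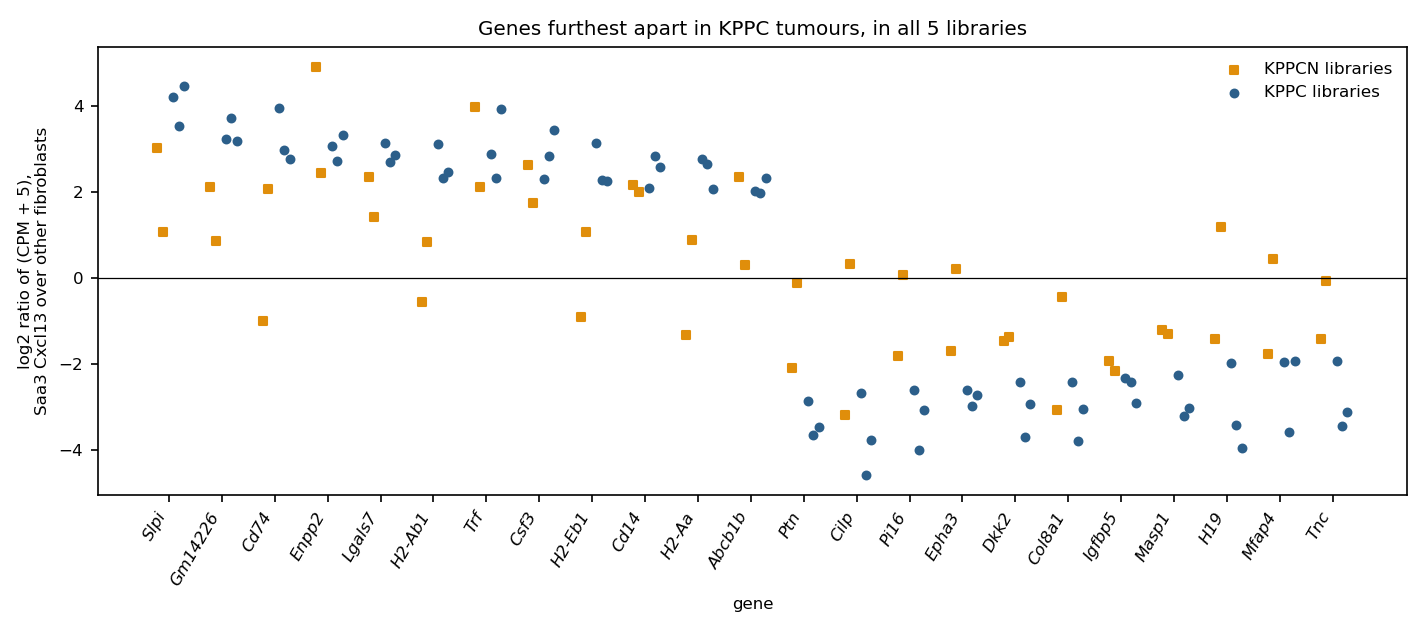
Log2 ratio of CPM + 5, cells that meet the definition over other fibroblasts, for the 12 genes that stood highest and 11 of those that stood lowest in KPPC members; squares are KPPCN libraries and circles KPPC libraries. The KPPC points were used to choose the genes, and the KPPCN squares of the class II genes lie on both sides of 0.

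By list, 8 of 14 adventitial genes, 4 of 18 myofibroblast genes and 9 of 34 interstitial matrix genes were called lower in KPPCN passing cells and none higher, against 0.889% of all genes. The matrix list had a median log2 difference of −0.62, with 33 of 34 genes negative, against −0.02 over all genes tested. Genes with the lowest p in this direction were Gpc6, Tppp3, Fmo2, Fhl1, Col14a1, Anxa3, Pcdh19, Lrrc17, Prss23 and Akap12. Col14a1, a collagen that binds fibrils, stood at 237 and 228 scaled CPM in passing cells and 730.1 and 512 in other fibroblasts, a difference of −1.46 (SE 0.21, adjusted p = 0.00282). Pi16, at 179.9 and 543 scaled CPM in passing cells and 588 and 495 in other fibroblasts, was lower in KPPCN 1 only and did not pass (−1.19, SE 0.35, adjusted p = 0.106). Of 26 TGFβ and BMP genes, Ctgf, Tgfb3, Fstl1 and Ltbp1 were called lower and none higher. Of the mesothelial list, Wt1 was called higher, at 421 and 178 scaled CPM in passing cells against 165 and 148 in other fibroblasts (0.97, SE 0.23, adjusted p = 0.0405), and Sulf1 lower, among 13 tested.

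Of 24 sterol synthesis genes tested in KPPCN, 5 were called higher in passing cells and none lower, and 23 were positive, with a median log2 difference of 0.60. Over all 11235 genes outside the definition, 1.55% were called higher and 5322 were positive, with a median of −0.02. The called genes included Nsdhl, Fdps, Cyp51 and Sqle. Sqle, squalene epoxidase, stood at 30.9 and 15.1 scaled CPM in passing cells and 6.93 and 6.76 in other fibroblasts, a difference of 1.38 (SE 0.26, adjusted p = 0.0148). Nsdhl, the sterol dehydrogenase described above, stood at 22.1 and 15.1 scaled CPM in passing cells and 6.28 and 8.57 in other fibroblasts (1.08, SE 0.23, adjusted p = 0.0283). In the KPPC members only Sqle stood 2-fold higher than in other fibroblasts among 14 sterol genes at 20 CPM, at 21.4, 35.2 and 32.1 CPM in members against 7.29, 12.3 and 13.1 CPM in other fibroblasts, and the median log2 ratio was 0.35, against 1.47% of all genes and a median of −0.08. Whether the 2 genotypes differ in this contrast was not tested.

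Between genotypes, cells that pass the cutoffs were compared over 2 KPPCN and 3 KPPC libraries. The limma test called 0 of 11198 genes (0%) in either direction after adjustment, where 0.28 was the lowest adjusted p. An unadjusted p under 0.05 was found for 1331 genes. No list had a member called. Without KPPCN 2, 18 genes were called higher and 1 lower, and without H2 the numbers were 1 and 2. Without KPPCN 1, C3 or D3 no gene was called. Leaving out the 448 tested genes that were listed at 0 in a whole KPPC library also gave 0 calls. Slpi stood at 1071 and 159.5 scaled CPM in KPPCN cells and 1281, 2210.5 and 1698 in KPPC cells. Its log2 difference of −1.34 (SE 0.62, adjusted p = 0.43) did not pass. Enpp2, at 1309 and 231 in KPPCN and 398, 432 and 494 in KPPC, lay on both sides of the KPPC values (0.85, SE 0.50, adjusted p = 0.511). Cd74, at 396 and 256 in KPPCN and 456, 517 and 420.3 in KPPC, did not pass either (−0.38, SE 0.43, adjusted p = 0.736).

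The genes with the lowest p did not come from fibroblast lists. Lower in KPPCN were Tff2, Fxyd3, Oard1, Mgst1, Spint2, Dmbt1, Gsta4, Reg3b, Ctse and Gkn3, most of them known from gastric or pancreatic epithelium. Tff2, a gastric trefoil peptide, stood at 4.25 and 4.88 scaled CPM in KPPCN cells and 68.8, 41.6 and 31.5 in KPPC cells (−2.41, SE 0.37, adjusted p = 0.28). In KPPC it stood at 3001, 1833 and 1698 CPM in epithelial tumour cells and 68.2, 40.3 and 94.7 CPM in other fibroblasts, and the 12 epithelial genes, of which 3 are limited by the definition, summed to 314 and 102 CPM in the passing KPPCN cells, against 549.5, 763 and 463 CPM in members. Epithelial tumour cells numbered 33 and 30 in the KPPCN libraries and 424, 732 and 534 in the KPPC libraries. Of 9 epithelial genes tested, 9 were negative. Of all 11184 genes tested outside the definition, 5721 were positive and 5463 negative. The 8 acinar genes tested were positive, but Cpb1, Cela3b, Try4 and Try5 were listed at 0 in every population of D3 and Cpb1 and Try4 in every population of H2. Summed, the 8 stood at 264 and 61.7 CPM in the passing KPPCN cells, against 97.7, 39.6 and 89.0 CPM in members, so KPPCN 2 lay within the KPPC range. The part of free RNA from epithelial or acinar cells in the differences was not tested. Try4 and Gm9780, among the 10 with the lowest p on the higher side, were listed at 0 in all cells of D3 and H2.

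**Figure D5:**
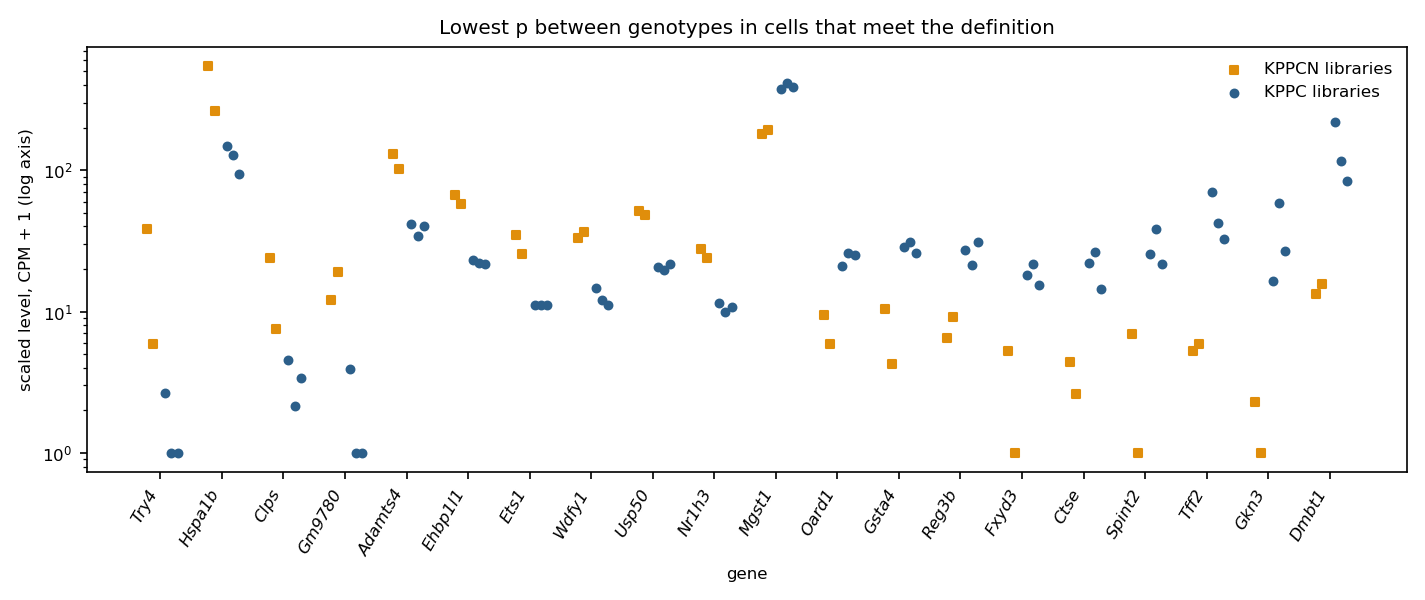
Scaled level (CPM + 1, log axis) in cells that meet the definition, for the 20 genes with the lowest p between genotypes, none of which passed adjustment; squares are KPPCN libraries and circles KPPC libraries. The 10 genes on the left lie higher in both KPPCN libraries and the 10 on the right lower.

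Higher in KPPCN at the lowest p were Ehbp1l1, Usp50, Ets1, Adamts4, Wdfy1, Hspa1b, Nr1h3 and Clps besides Try4 and Gm9780. Adamts4, a protease that cleaves aggrecan, stood at 128 and 101 scaled CPM in KPPCN and 40.6, 33.4 and 39.2 in KPPC (1.57, SE 0.27, adjusted p = 0.28). Nr1h3, the sterol-sensing receptor LXRα, stood at 26.8 and 22.8 in KPPCN and 10.6, 8.98 and 9.85 in KPPC (1.06, SE 0.21, adjusted p = 0.28). Neither passed. The libraries of the 2 genotypes did not overlap for either gene, but both genes were picked by their low p. The share of all genes without overlap was not counted. Sterol synthesis genes had a median log2 difference of −0.05 (11 positive and 13 negative of 24), against 0.01 over all genes tested. TGFβ and BMP genes had a median of 0.05 (15 positive and 11 negative of 26). Nsdhl stood at 21.2 and 14.6 scaled CPM in KPPCN and 15.3, 22.7 and 12.7 in KPPC (0.16, SE 0.29, adjusted p = 0.849), which is no check of the genotype, since fibroblasts arise outside the lineage of the deletion as usually understood and a 3′ tag may lie outside the deletion. Of 34 interstitial matrix genes 28 were positive and of 14 adventitial genes 13, with medians of 0.51 and 0.97 and no call. Over all 11184 genes tested outside the definition, 5721 were positive. Genes of a list can move together in 5 libraries, and no list was tested as a set.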

How the data were processed

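Tumour cells of 2 KPPCN and 3 KPPC libraries (10x Genomics 3′ V3 chemistry, 6000 cells loaded per library, single-end reads of 98 bp, per the labels' protocols) were analysed. Cell Ranger 2.1.0, Seurat 3.0.2, R 3.5.1 and the build GRCm38 are named in the submitters' processing notes. The authors deposited natural log values: in each cell the exponential minus 1 summed to 10000, so each is ln(1 + UMIs per 10000). Dividing by the smallest step of a cell gave whole UMIs for 100% of values within 0.01. For KPPCN cells 31053 genes are listed, and 12579 for KPPC cells. Genotypes were compared over the 12579 shared genes (99.3% of KPPCN UMIs). No source used here states the authors' filters.

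Cells of at least 500 genes were used, which left out 733 and 68 KPPCN barcodes. KPPC columns carry codes that match no KPPC sample title and were used as libraries of that group without number. Each library was taken as 1 mouse. Between genotypes, p-values rest on the spread between these 5 libraries. For passing cells against other fibroblasts they rest on the 2 KPPCN libraries only. In both tests the variance of a gene was moderated by that of the other genes. UMIs were summed per population and library. Tests used limma 3.58.1 (R 4.3.3) on log2(CPM + 5) after a trimmed-mean scaling, precision weights from counting, between-cell and between-library variance, a moderated trend and a threshold of 0.05 after Benjamini-Hochberg adjustment, for genes with 15 UMIs or more over the libraries and a mean of 10 or more when scaled to the median total. Since the deposited unit is a log value, no count model was used. The script was tested on simulated data. Tables were handled in Python 3.11.15 with numpy 2.4.6, scipy 1.17.1 and pandas 2.3.3.

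The members, the 39 gene lists, the markers and the comparisons were chosen with earlier results of these data known. Genes are named if they are in the definition or the markers, if they are list members at 20 CPM or more, if they are among the 12 highest or lowest against other fibroblasts or the 8 highest or lowest against mesothelial cells (at 50 CPM, by the library with the smallest ratio), or if they are among the 10 with the lowest p in each direction of a test. Kitl was named after its values were seen. A few genes that meet these rules are not reported here. Alternatives tried are a pseudocount of 1 CPM, no filter, no scaling, no weights, cells thinned to 1000 UMIs, a sum of at least 40, equal cell weights, other limits, each library left out, and, added after the data were seen, cells of at least 1000 genes and genes with a UMI in every KPPC library.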

Additional observations from a re-analysis of the deposited data

Results flagged for a closer look

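For 10 genes, the log2 ratio of cells that meet the definition over other fibroblasts had one sign in both KPPCN libraries and the other sign in all 3 KPPC libraries. The genotypes' mean ratios are given with their difference (KPPCN minus KPPC), and the difference was not tested for any of them. The 10 were found by looking for that pattern among the listed and ranked genes at 50 CPM or more in both genotypes. The share of all genes with that pattern was not counted, so the number of genes found is not a result.

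Mki67, Birc5 and Top2a, genes of dividing cells, had the widest gaps among the 10. Mki67 had a mean ratio of −1.17 in KPPCN and 0.82 in KPPC, a difference of −1.98. Birc5 had −0.77 and 0.87, a difference of −1.63, and Top2a had −0.83 and 0.72, a difference of −1.55. In KPPC, Mki67 stood at 42.5, 66.4 and 60.3 CPM in members and 28.1, 28.5 and 31.7 CPM in other fibroblasts. Of a list of 15 cell cycle genes, none was called in KPPCN, where 3 were positive and 12 negative (median −0.29). Of all 11235 genes there, 1.55% were called higher, 0.889% lower and 5322 were positive (median −0.02). In KPPC, none of 12 measured stood 2-fold apart in all 3 libraries (median 0.79). Of all genes at 20 CPM there, 1.47% stood higher and 2.3% lower (median −0.08). In KPPC the 15 summed to 431, 858 and 737 CPM in members (C3, D3, H2), against 353, 382 and 341 CPM in other fibroblasts. In KPPCN 1 and 2 they summed to 417 and 349 CPM in passing cells, against 689 and 468 CPM in other fibroblasts.

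Hspa1b, Hspa1a and Egr1 lay the other way. Hspa1b had a mean ratio of 0.51 in KPPCN and −0.72 in KPPC, a difference of 1.22, Hspa1a 0.35 and −0.43, a difference of 0.78, and Egr1 0.27 and −0.29, a difference of 0.57. Of all 11235 genes tested in KPPCN outside the definition, 1.55% were called higher and 5322 were positive (median −0.02). Of all genes at 20 CPM in KPPC, 1.47% stood 2-fold higher and 2.3% lower (median −0.08). In the list of 16 early response genes that holds Hspa1b, Hspa1a and Egr1, all 16 were positive in KPPCN. Only Atf3 was called (median 0.56), and in KPPC none of the list stood 2-fold apart (median 0.07). The remaining genes were Cxcl1, with 0.39 in KPPCN and −0.27 in KPPC and a difference of 0.66, Fndc1, with 0.21 and −0.41 and a difference of 0.63, Rarres2, with 0.17 and −0.45 and a difference of 0.61, and Tnfrsf1a, with 0.18 and −0.14 and a difference of 0.32.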

How the results depend on the processing

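No paired analysis was possible because the columns of the KPPC libraries carry no replicate numbers. Between genotypes, 0 genes were called under the main settings, 2 after thinning cells to 1000 UMIs (1 higher and 1 lower) and 0 to 19 when 1 library was left out: 19 without KPPCN 2 and 3 without H2. With 1 KPPCN library left, it was assumed to vary like the KPPC libraries. Between passing cells and other fibroblasts of KPPCN, the 274 calls became 118 with a pseudocount of 1 CPM, 855 with no filter, 478 with no scaling, 1 with no weights, 97 after thinning and 1106 with a sum of at least 40. The filter tests fewer genes, and for the other settings the cause was not tested. Leaving out a KPPCN library left no test for that comparison. Of the 20 genes with the lowest p there, no direction changed, and 27 of 137 alternative values missed the threshold, 19 without weights (adjusted p of 0.0902 to 0.151 by limma) and 8 after thinning. In KPPC, 165 genes stood 2-fold apart from other fibroblasts, and 171 to 308 did when 1 library was left out (308 without C3). The mean share of members, 8.55%, became 6.21% with a mesothelial limit of 1.5 and 10.8% with a limit of 6. No direction reversed among the 24 genes rerun in KPPC, the 20 in the KPPCN test and the 20 between genotypes, and the other named genes were not rerun. The low depth of KPPCN 1 and the 33 passing cells of KPPCN 2 limit both tests.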

Other observations

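Promoter windows were found for 32 of the 55 genes that stood 2-fold higher in KPPC members. A gene was counted if any of its windows held the word. Of the 32 genes, 9 (28.1%) held TTNNGCAA, against 9 of 68 genes (13.2%) that stood lower and 12.2% of all 27025 genes with a window. ATTGG was held by 16 of the 32 higher genes, by 27 of the 68 lower genes (39.7%) and by 41.1% of all genes with a window. These are counts of letters in a window of fixed length, with no test.

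In KPPC, where 1.47% of all genes at 20 CPM stood 2-fold higher and 2.3% lower, retinoid genes had no member 2-fold apart among 10 measured, with Aldh1a2, a retinoic acid enzyme of the mesothelium, at 273, 232 and 273 CPM in members and 173, 282 and 288 CPM in other fibroblasts. Of 16 growth factor and IGF genes, Fgf1 stood 2-fold higher, at 59.3, 67.8 and 56.3 CPM in members, 24.5, 26.9 and 19.4 CPM in other fibroblasts and 445, 360.2 and 389 CPM in mesothelial cells, and Igfbp3, Igfbp5, Igfbp6 and Pdgfc stood 2-fold lower. Ptgis, the prostacyclin synthase, stood at 784, 1165 and 981 CPM in members and 378, 419 and 343 CPM in other fibroblasts, and was called higher in the passing cells of KPPCN as well (1.01, SE 0.23, adjusted p = 0.0344, limma). Osr1, a transcription factor of the mesenchyme beneath the mesothelium, stood at 161, 266 and 155 CPM in members and 77.1, 60.1 and 48.1 CPM in other fibroblasts, and was called higher in KPPCN (1.10, SE 0.24, adjusted p = 0.03, limma).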
